A study of Homo sapiens with 21 samples.

Results

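The endoplasmic reticulum is the compartment in which secreted and membrane proteins fold. When unfolded proteins accumulate there, the sensors ATF6, IRE1 and PERK start the unfolded protein response. ATF6 is cut in the Golgi and its released fragment acts as a transcription factor on chaperone genes. IRE1, encoded by ERN1, removes a short segment from the XBP1 transcript, and the protein made from the spliced transcript switches on chaperone and protein disposal genes. PERK acts by a separate route, through phosphorylation of the initiation factor eIF2 alpha and translation of ATF4. The 10 genes described here stand for the ATF6 and IRE1 branches: the sensors ATF6 and ERN1, the transcription factor XBP1, the chaperones and folding proteins HSPA5, HSP90B1, PDIA4, DNAJB9 and SDF2L1, and the disposal genes HERPUD1 and EDEM1. They were taken by gene name from a count table of 58735 genes, and 10 of the 10 passed the filter on low counts that left 16196 genes for testing.

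Cells labelled HepG2, a line derived from a human liver tumour, were kept for 6 h in serum-free medium with coumarin, a plant lactone used as a fragrance, at 0, 0.001, 0.01, 0.1, 1, 10 or 100 µM. The labels give 3 biological replicates for each of the 7 concentrations, 21 libraries in all. The controls (0 µM) were in the same serum-free medium without coumarin, so all 21 cultures had serum withdrawn for the same time. No further line, clone or positive control for stress of the endoplasmic reticulum was analysed here.

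Library totals ran from 27984517 to 43704155 counts, and mitochondrial transcripts took 5.61% to 6.63% of them. The label was checked against defining transcripts. Of 14 hepatocyte genes, 5 (ALB, SERPINA1, FGB, FGA and AHSG) had no read in any of the 21 libraries, and the 14 together summed to 0.0268 to 0.254 CPM, counts scaled to a fixed library total. A list of 7 simple epithelial genes summed to 4206 to 4560 CPM at 0 µM and 4031 to 4153 CPM at 100 µM, and 7 mesenchymal genes to 1312 to 1327 CPM and 1232 to 1283 CPM. A few genes carried each sum: of the epithelial genes KRT19, CDH1 and SOX9 had a mean below 1 CPM and EPCAM was at 0, and of the mesenchymal genes COL1A2, DCN and LUM had a mean below 1 CPM. These sums were lower at 100 µM, and their part in the results below was not tested. Endothelial and leukocyte lists summed to at most 1.35 CPM and 0.171 CPM in any library. The libraries held next to none of the transcripts that define hepatocytes, and the cells are called here by their label only.

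Promoters of the genes are shown first, because members of the ATF6 and XBP1 branches are known for a shared element to which ATF6 binds together with the factor NF-Y. Windows of 300 bases around RefSeq transcription starts (GRCh38.p14) were searched on both strands for the endoplasmic reticulum stress element, ERSE (CCAAT, any 9 bases, then CCACG), for ERSE-II (ATTGG, any 1 base, then CCACG), for the core of the unfolded protein response element (TGACGTGG) and for the C/EBP-ATF core (TGATGNAAN) that ATF4 is known to bind. RefSeq windows were found for 10 of the 10 genes, with 2 start sites each for XBP1 and PDIA4. An ERSE lay in 27 of 35116 windows (0.0769%) and in those of HSPA5, HSP90B1 and XBP1. An ERSE-II lay in 19 windows (0.0541%) and in those of SDF2L1 and HERPUD1. The ATF6, ERN1, PDIA4, DNAJB9 and EDEM1 windows held neither string, which says only that these letters are not in them. The stretches that hold the matches follow, 5′ to 3′ on the strand of the gene, with matches in capitals. HSP90B1 holds 2 ERSE, the second read on the opposite strand. The ERSE-II of SDF2L1 is on the opposite strand. In HERPUD1 the first capitals are a C/EBP-ATF core on the opposite strand and the second an ERSE-II.
HSPA5 (chr9:125241344-125241483, minus strand): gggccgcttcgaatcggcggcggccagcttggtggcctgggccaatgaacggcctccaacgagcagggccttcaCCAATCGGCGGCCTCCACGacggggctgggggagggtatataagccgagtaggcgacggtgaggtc
HSP90B1 upstream match (chr12:103930213-103930237, plus strand): tgaCCAATCGGAAGGAGCCACGctt
HSP90B1 downstream match (chr12:103930318-103930342, plus strand): gtgCGTGGTGCGGCGCGATTGGtgg
XBP1 (chr22:28800598-28800682, minus strand): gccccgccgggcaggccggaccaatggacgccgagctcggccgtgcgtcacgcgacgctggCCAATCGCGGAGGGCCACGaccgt
SDF2L1 (chr22:21642052-21642191, plus strand): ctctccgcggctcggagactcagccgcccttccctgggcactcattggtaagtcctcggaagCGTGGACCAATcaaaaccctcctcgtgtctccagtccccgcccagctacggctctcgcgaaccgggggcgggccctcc
HERPUD1 (chr16:56931908-56932047, plus strand): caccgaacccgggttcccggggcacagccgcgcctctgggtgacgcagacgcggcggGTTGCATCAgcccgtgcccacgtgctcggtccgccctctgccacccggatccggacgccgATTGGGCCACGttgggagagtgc

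The C/EBP-ATF core lay in 1268 windows (3.61%), and HERPUD1 was the member that held one. The core of the unfolded protein response element lay in 256 windows (0.729%) and in none of the members' windows. Counted from the RefSeq start site, the ERSE spanned bases -66 to -48 in HSPA5 and -52 to -34 in XBP1. Both HSP90B1 matches fall in exons annotated in GENCODE 29, taken over all genes and both strands. Whether these exons belong to HSP90B1 was not tested. GENCODE 29 starts that gene further upstream than the RefSeq transcript. XBP1 and HSPA5 share this element within a similar distance of the RefSeq start. By the deposited gene coordinates HSPA5 starts at base 125241330 and XBP1 at 28800597. The near ends of their matches are at bases 125241391 and 28800603, so these distances are less alike. The transcripts of XBP1 and HSPA5 moved in opposite directions at 100 µM, as described below.

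**Figure D1:**
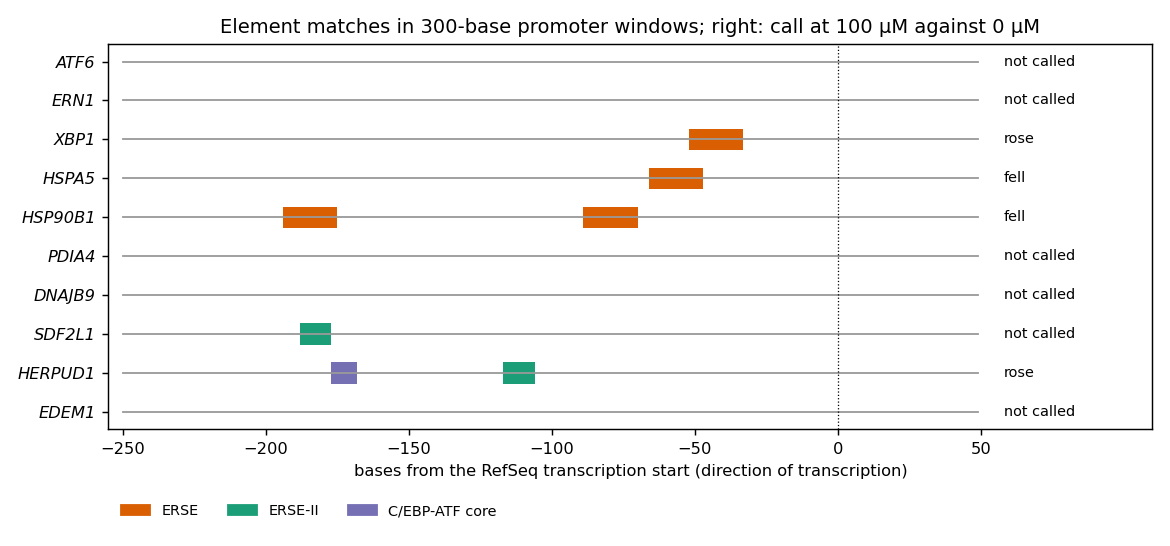
Positions of element matches (coloured bars) in bases from the RefSeq start site for the first window of each of the 10 genes, with the call at 100 µM against 0 µM at the right. Of the 5 genes with an ERSE or ERSE-II, HSPA5 and HSP90B1 fell, XBP1 and HERPUD1 rose, and SDF2L1 was not called.

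The XBP1 transcript also carries the segment that IRE1 removes. Comparison of the annotated transcripts XBP1-201 and XBP1-207 in GENCODE 29 showed 26 bases (in capitals, with flanking bases of the longer transcript) that the shorter one lacks; 7 placements of the gap fit equally well and 1 is shown.
XBP1 segment: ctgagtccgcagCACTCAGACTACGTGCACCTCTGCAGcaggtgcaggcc

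Of 5 coding XBP1 transcripts, 3 hold the segment. The deposited values are sums per gene, so reads with and without these bases were counted together, and the splicing that IRE1 carries out was not analysed here.

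The 10 genes differed widely in level. Per gene length, in the deposited FPKM (fragments per kilobase of gene, scaled to the library's size) over 21 libraries, HSPA5, the Hsp70 chaperone also known as BiP, stood at 262 ± 11.2 (SD) and HSP90B1, the Hsp90 relative GRP94, at 260 ± 9.73. These levels overlapped from library to library and did not differ beyond their spread. The disulfide isomerase PDIA4 followed at 70.3 ± 2.76 FPKM, then SDF2L1, which works with HSPA5 and its co-chaperones, at 59.3 ± 4.88 and XBP1 at 49.9 ± 2.78. The ranges of PDIA4 and SDF2L1 overlapped, as did those of SDF2L1 and XBP1. HERPUD1, a membrane component of the ubiquitin ligase complex that clears misfolded proteins, was at 26.1 ± 1.11 FPKM, and ATF6 at 8.13 ± 0.29. EDEM1, which directs misfolded glycoproteins to disposal, was at 5.23 ± 0.266 FPKM and the co-chaperone DNAJB9 at 3.64 ± 0.198. ERN1 was lowest at 0.389 ± 0.0512 FPKM, from 97 to 185 counts per library. From HERPUD1 down to ERN1, the ranges of neighbours did not overlap.

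**Figure D2:**
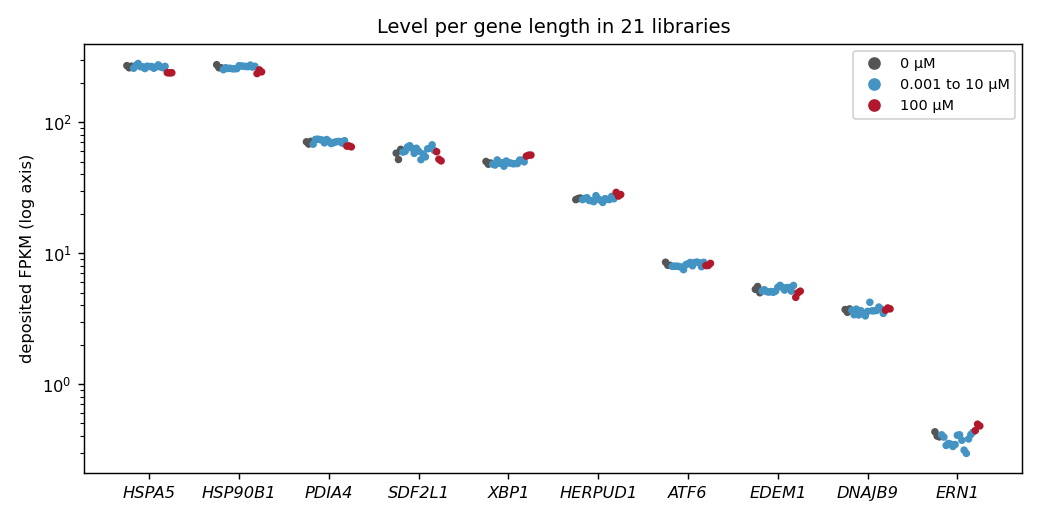
Deposited FPKM (log axis) of each gene in the 21 libraries, grey for 0 µM, blue for 0.001 to 10 µM and red for 100 µM. Levels run from 262 FPKM for HSPA5 to 0.389 FPKM for ERN1, and the changes with dose are small on this scale.

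For the comparison of concentrations, counts were scaled to CPM with edgeR's TMM factors, and each concentration was compared with 0 µM by edgeR's quasi-likelihood test with Benjamini-Hochberg adjustment over 16196 genes. A gene is said to have risen or fallen where the adjusted p was under 0.05. At 100 µM, 4 of the 10 genes passed the test, 2 up (XBP1 and HERPUD1) and 2 down (HSPA5 and HSP90B1), beside 8.47% of all tested genes (3.66% higher and 4.8% lower). The changes were small, 8% to 14% of the control level. All comparisons with 0 µM share the same 3 control libraries. In cultures of many cells, fewer cells of a type and less RNA per cell cannot be told apart.

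HSPA5 (ENSG00000044574, chromosome 9, 125234853 to 125241330, minus strand, GRCh38) is the most abundant of the 10 genes per length together with HSP90B1, and its protein also holds the sensors inactive. The 3 control libraries had 1023, 998 and 1019 CPM, and the 3 libraries at 100 µM had 911.1, 910.4 and 912.0 CPM. The 18 libraries from 0 to 10 µM ran from 984 to 1057 CPM with a median of 1007. All 3 libraries at 100 µM were below every other library. HSPA5 fell by 0.15 on the log2 scale (SE 0.031, edgeR adjusted p = 0.00184), or by 10.1%, from 1013 ± 13.5 to 911 ± 0.796 CPM (SD, n = 3). This call held in 29 of 29 alternative settings.

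HSP90B1 (ENSG00000166598, chromosome 12, 103930107 to 103953645, plus strand) encodes the other main chaperone of the compartment. Control libraries had 1249, 1199.6 and 1191 CPM, and those at 100 µM had 1077, 1155 and 1113 CPM. The 18 libraries from 0 to 10 µM lay between 1157 and 1249 CPM, with a median of 1203. All 3 libraries at 100 µM were below these 18, though the highest of them lay close to the lowest of the 18. HSP90B1 fell by 0.12 on the log2 scale (SE 0.033, edgeR adjusted p = 0.0201), or by 8.1%. Without 0 µM replicate 1, 100 µM replicate 1 or 100 µM replicate 3, or with only the 6 libraries compared, the call was lost, with an adjusted p of up to 0.174. The gene overlaps C12orf73 on the other strand, which had 11549 reads over the 21 libraries against 869685 for HSP90B1.

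XBP1 (ENSG00000100219, chromosome 22, 28794555 to 28800597, minus strand) moved the other way. Control libraries had 147, 142 and 144 CPM, and the libraries at 100 µM had 163, 166 and 166 CPM. At 10 µM the values were 150.0, 151 and 147 CPM, and the 18 libraries from 0 to 10 µM ran from 137 to 151 CPM with a median of 144. The 100 µM libraries stood above all others. XBP1 rose by 0.19 on the log2 scale (SE 0.035, edgeR adjusted p = 0.00052), or by 14.3%, from 144 ± 2.58 to 165 ± 2.01 CPM (SD, n = 3). This call held in 29 of 29 alternative settings.

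HERPUD1 (ENSG00000051108, chromosome 16, 56932048 to 56944863, plus strand) had 128, 132 and 132 CPM in the controls and 146, 138 and 141 CPM at 100 µM. The 18 libraries from 0 to 10 µM ran from 124 to 136 CPM with a median of 129, below all 3 libraries at 100 µM. The rise was 0.12 on the log2 scale (SE 0.037, edgeR adjusted p = 0.0448), or 8.42%. It lay close to the threshold and passed in 14 of 29 alternative settings, with an adjusted p of up to 0.206. Among the settings that ended the call were the replicate block, limma on the FPKM and leaving out any one of 0 µM replicates 1 and 2 and 100 µM replicates 1 and 3. Overlapping genes on the same strand, AC012181.1 and AC012181.2, had 466 and 734 reads over the 21 libraries against 96013 for HERPUD1.

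The other 6 genes did not pass the test at 100 µM. PDIA4 (chromosome 7, 149003062 to 149028641, minus strand) had 225, 219 and 228 CPM in the controls and 209.9, 212 and 208 CPM at 100 µM. All 3 libraries at 100 µM were below all 18 from 0 to 10 µM (218 to 236 CPM), and the log2 difference was -0.09 (SE 0.035, edgeR adjusted p = 0.0992). ERN1 (chromosome 17, 64039142 to 64130819, minus strand) had 4.54, 4.27 and 4.18 CPM in the controls and 4.68, 5.26 and 5.09 CPM at 100 µM. These groups did not overlap, and the 100 µM libraries exceeded all 18 others (3.12 to 4.54 CPM), but at this depth the log2 difference of 0.21 had an SE of 0.11 (edgeR adjusted p = 0.255). So 6 of 10 genes had no overlap between 0 and 100 µM, 3 up and 3 down, beside 27.0% of all tested genes (13.1% higher and 13.9% lower).

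ATF6 (chromosome 1, 161766294 to 161964070, plus strand) stood at 63.2 ± 1.65 CPM in the controls and 62.8 ± 1.42 CPM at 100 µM (SD, n = 3). Its log2 difference was -0.01 (SE 0.04, edgeR adjusted p = 0.925), the groups overlapped, and the sign changed with the gene length offset or without 0 µM replicate 1, 100 µM replicate 1 or 100 µM replicate 2. The AL391825.1 pseudogene within it had 252 reads over the 21 libraries, against 45745 for ATF6. EDEM1 (chromosome 3, 5187646 to 5219957, plus strand) was at 34.8 ± 2.03 and 32.4 ± 1.86 CPM, a log2 difference of -0.10 with an edgeR adjusted p of 0.281. SDF2L1 (chromosome 22, 21642261 to 21644298, plus strand) was at 61.4 ± 5.23 and 58.1 ± 4.99 CPM, with an edgeR adjusted p of 0.534. DNAJB9 (chromosome 7, 108569568 to 108574850, plus strand) was at 10.1 ± 0.269 and 10.4 ± 0.223 CPM, with an edgeR adjusted p of 0.834. In each of these 4 genes the libraries at 0 and 100 µM overlapped. The DNAJB9 value is uncertain, because the gene overlaps PNPLA8 and THAP5 on the other strand (17119 and 16647 reads over the 21 libraries, against 7364 for DNAJB9) and no source used here says whether counting used strand.

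**Figure D3:**
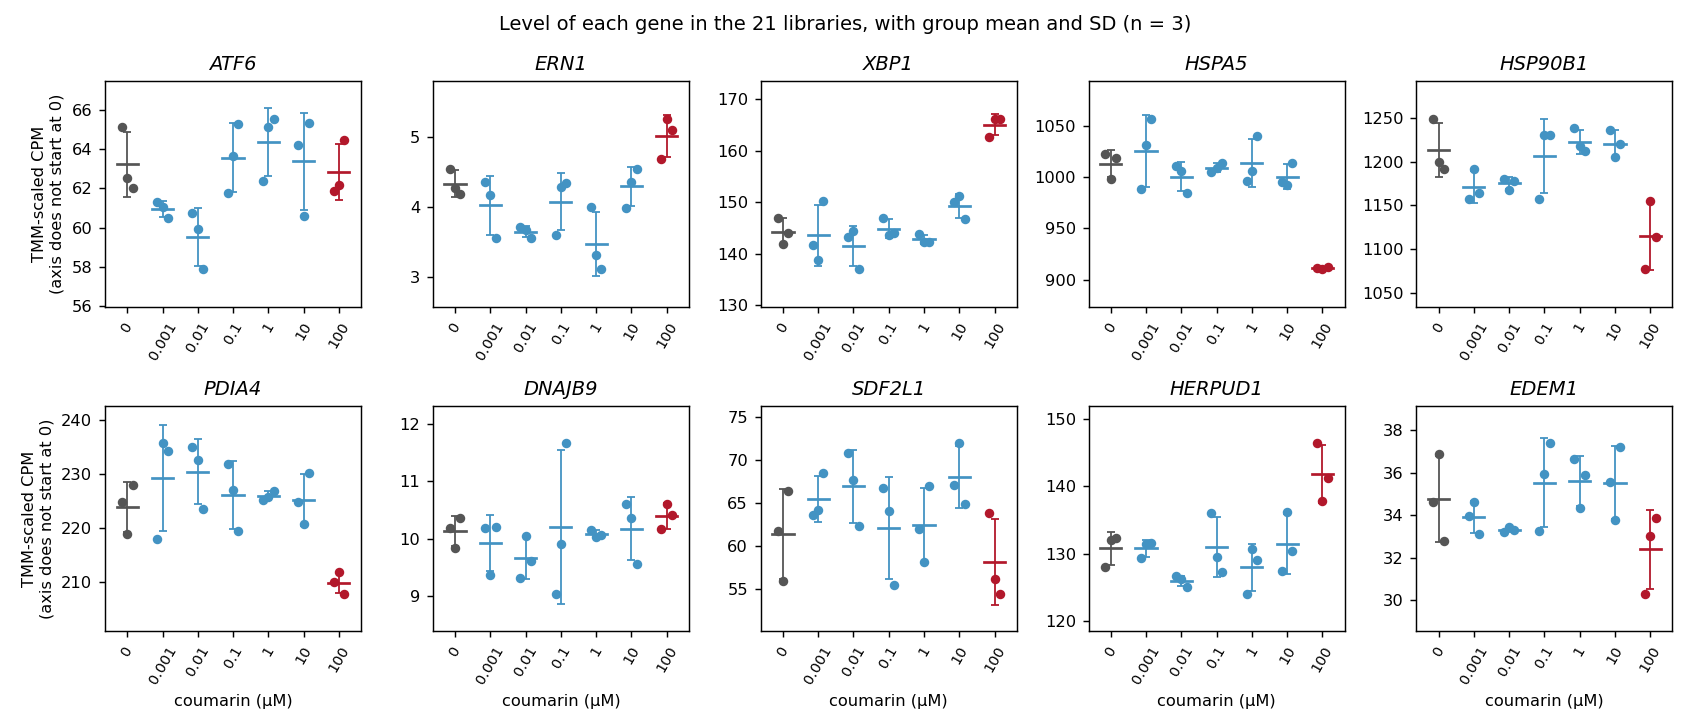
TMM-scaled CPM of each gene against coumarin concentration (points are libraries, lines the mean of 3, bars the SD; axes do not start at 0). The 100 µM libraries (red) of HSPA5 at 910 to 912 CPM and of XBP1 at 163 to 166 CPM stand apart from the other 18. Those of ATF6 and DNAJB9 lie among the 18. For EDEM1, replicate 1 (30.3 CPM) lies below the 18 and the others among them. For SDF2L1, replicate 3 (54.4 CPM) lies below the 18 and the others among them.

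XBP1 and HSPA5 can be set against each other within a library, which removes the library scaling. XBP1 counts were 14.2% ± 0.121 (SD, n = 3) of HSPA5 counts at 0 µM, 14.9% ± 0.411 at 10 µM and 18.1% ± 0.22 at 100 µM. The 3 libraries at 100 µM (17.9% to 18.3%) did not overlap with any of the other 18 libraries, of which the highest was at 15.2%. The log2 ratio was higher by 0.35 at 100 than at 0 µM, with an exact two-sided permutation p of 0.1, the smallest that 3 against 3 libraries can give. The ratio combines the XBP1 rise and the HSPA5 fall given above, in the same libraries, and is no separate evidence for them.

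At concentrations of 10 µM and below, no member passed the edgeR test against 0 µM, nor did any by DESeq2, by limma on the FPKM or in any other setting run. The share of all genes called was 0.327% at 10 µM, 0.0% at 1 µM, 0.00617% at 0.1 µM, 0.00617% at 0.01 µM and 0.0% at 0.001 µM. At an unadjusted p under 0.05, edgeR gave 1 member at 10 µM, 1 at 1 µM, 0 at 0.1 µM, 2 at 0.01 µM and 0 at 0.001 µM. The share of all genes at that cut was 12.2% at 10 µM, 3.91% at 1 µM, 6.27% at 0.1 µM, 8.81% at 0.01 µM and 8.42% at 0.001 µM. The gene at 10 µM was SDF2L1, with 67.0, 71.9 and 64.9 CPM against 61.7, 55.9 and 66.4 CPM in the controls, which overlapped (log2 difference 0.14, edgeR adjusted p = 0.406). ERN1 had 4.00, 3.31 and 3.12 CPM at 1 µM, below its 3 controls (log2 difference -0.32, SE 0.12, edgeR adjusted p = 1.00). It also had 3.72, 3.68 and 3.56 CPM at 0.01 µM, again below the controls (-0.25, edgeR adjusted p = 0.559), and ATF6 had 60.7, 59.9 and 57.9 CPM there, also below (-0.09, edgeR adjusted p = 0.558). Counted by overlap with the controls, 4 members lay wholly below them at 0.01 µM (HSP90B1, ERN1, ATF6 and HERPUD1), ATF6 did so at 0.001 µM and ERN1 at 1 µM, and 0 members stood apart at 0.1 or 10 µM. Of all genes, 12.2% stood apart in either direction at 0.001 µM, 14.6% at 0.01 µM, 8.99% at 0.1 µM, 8.19% at 1 µM and 16.7% at 10 µM. Wholly below the controls lay 1072 of 16196 genes at 0.001 µM, 1174 at 0.01 µM and 637 at 1 µM.

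**Figure D4:**
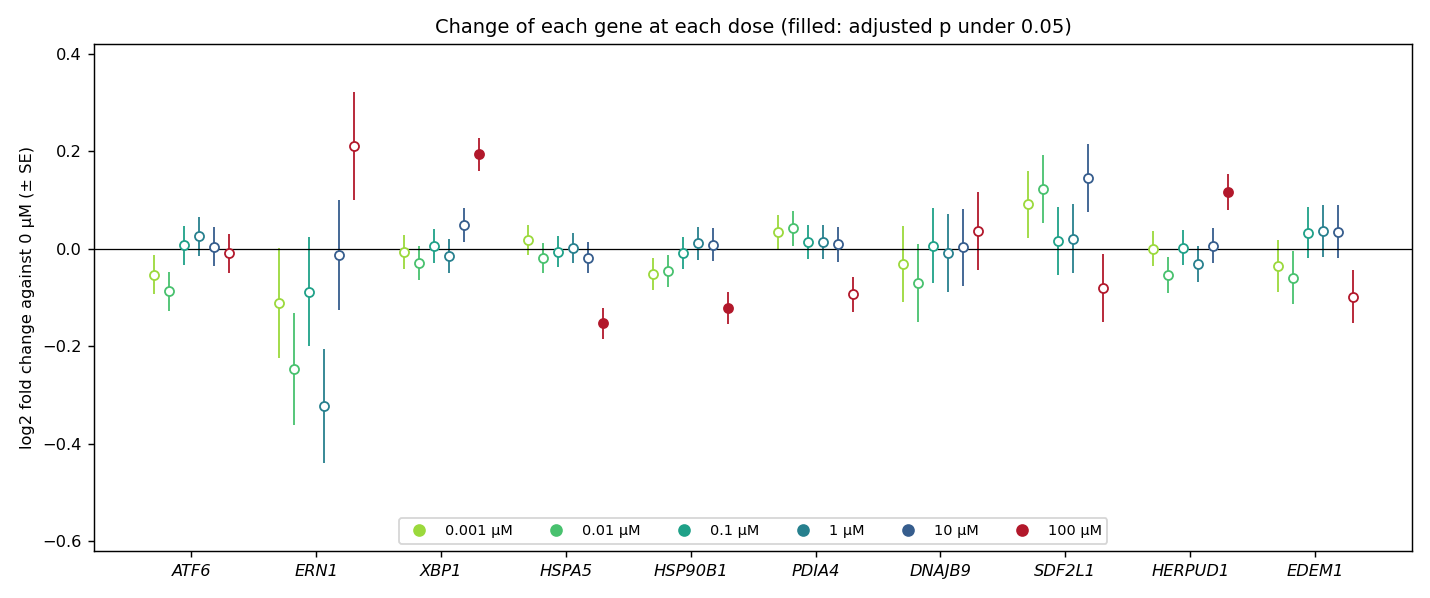
Log2 fold change of each gene against 0 µM (points, bars are the SE) for the 6 coumarin concentrations; filled points have an adjusted p under 0.05. The filled points are those of XBP1, HERPUD1, HSPA5 and HSP90B1 at 100 µM, and ERN1 has the widest error bars.

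The step from 10 to 100 µM was tested directly, with other comparison libraries than the controls. XBP1 rose by a log2 value of 0.14 (edgeR adjusted p = 0.0142), and HSPA5 and HSP90B1 fell by 0.14 and 0.13 (edgeR adjusted p = 0.0104 and 0.0213), so 3 of 10 genes were called beside 4.57% of all genes (2.07% higher and 2.49% lower). SDF2L1 was at 68.0 ± 3.6 CPM at 10 µM and 58.1 ± 4.99 CPM at 100 µM, with no overlap (as in 25.6% of all genes), and a log2 difference of -0.23 that missed the threshold (edgeR adjusted p = 0.0624). That difference was called in 8 of 29 alternative settings, DESeq2, no filter, the gene length offset and only the groups compared among them, with an adjusted p from 0.000804 to 0.245. No member was called without 10 µM replicate 3, and 1 without 10 µM replicate 1 or without 100 µM replicate 3.

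A linear trend over the 6 coumarin concentrations, which leaves out the controls, was called for 4 of 10 genes beside 4.45% of all genes (1.94% higher and 2.51% lower). Per 10-fold step, the fitted slope of XBP1 was 0.035 on the log2 scale (SE 0.0058, edgeR adjusted p = 0.000305). That of HSPA5 was -0.024 (SE 0.0052, edgeR adjusted p = 0.00484). These slopes do not describe an even change at each step. In rising order of concentration, mean HSPA5 was 1026, 1000, 1009, 1014, 1001 and 911 CPM. Mean XBP1 was 144, 142, 145, 143, 149 and 165 CPM. The slope was -0.021 for PDIA4 (edgeR adjusted p = 0.038) and 0.021 for HERPUD1 (edgeR adjusted p = 0.0497). The HERPUD1 trend passed in 4 of 29 alternative settings and that of PDIA4 in 17, whereas those of XBP1 and HSPA5 passed in 29 of 29. The count of 4 became 2 without any one of 0.001 µM replicates 2 and 3, 0.01 µM replicates 1 and 2, 10 µM replicate 2 and the 3 libraries at 100 µM. The calls share the 100 µM libraries with the comparisons above. With all 7 groups compared at once, 3 of 10 genes differed beside 4.35% of all genes: XBP1 (edgeR adjusted p = 0.000684), HSPA5 (0.00835) and ERN1 (0.0486). The ERN1 call passed in 11 of 28 settings, and the HSPA5 call was lost without any one of the 100 µM replicates, which left 1 member called. Without 0.1 µM replicate 1 there were 5.

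The other genes of the endoplasmic reticulum were examined to see whether the pathway moved with these 10. Of 74 further genes for folding, disposal, protein entry and export, and for the sensors and their processing, 71 were tested at 100 µM, and 0 rose and 7 fell (9.86%, beside 8.47% of all genes), which left 64 not called. At an unadjusted p under 0.05 edgeR gave 5 higher and 17 lower (31.0%, beside 23.2% of all genes), and 29 of the 71 differences were above 0 and 42 below. The count of 7 became 2 without 0 µM replicate 1, 0 µM replicate 2 or 100 µM replicate 1, and 4 without 100 µM replicate 2. It became 11 without 0 µM replicate 3, of which 3 rose and 8 fell, and 11 without 0.1 µM replicate 1. At 100 against 10 µM, 0 of the 71 rose and 6 fell (8.45%, beside 4.57% of all genes). In that step 21 differences were above 0 and 50 below.

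Of 20 other folding genes, 0 passed the edgeR test, beside 8.47% of all genes. At an unadjusted edgeR p under 0.05, 0 were higher and 4 lower. The median log2 difference was -0.03, beside 0.0025 over all genes tested and -0.04 over the 10 members. Calreticulin, CALR, a lectin chaperone, was at 1213 ± 45.9 CPM in the controls and 1176 ± 3.48 CPM at 100 µM (-0.04, edgeR adjusted p = 0.515). HYOU1, an Hsp70 relative that exchanges nucleotide on HSPA5, was at 255 ± 5.73 and 259 ± 1.35 CPM. DNAJC3, a co-chaperone of HSPA5, was at 51.4 ± 1.79 and 46.6 ± 1.36 CPM (-0.14, edgeR adjusted p = 0.0726).

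Of 16 tested disposal genes, 0 rose and 2 fell, beside 3.66% and 4.8% of all genes, with a median of -0.03. ERLEC1, a lectin that recognises misfolded glycoproteins, went from 71.7 ± 3.52 to 63.8 ± 1.29 CPM (-0.17, edgeR adjusted p = 0.0156), and UBE2J1, a ubiquitin-conjugating enzyme of the membrane, from 80.7 ± 2.91 to 73.5 ± 2.55 CPM (-0.14, edgeR adjusted p = 0.0376). SEL1L, the scaffold of the HRD1 ubiquitin ligase, was at 84.8 ± 1.5 and 80.9 ± 1.97 CPM and was not called. The ERLEC1 call was lost in 3 and the UBE2J1 call in 10 of 29 settings, among them leaving out 0 µM replicate 1, 0 µM replicate 2 or 100 µM replicate 1.

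Of 20 entry and export genes, 0 rose and 3 fell, beside 3.66% and 4.8% of all genes, with a median of -0.06. SEC23A, a coat protein of the vesicles that leave the compartment, went from 185 ± 5.41 to 158 ± 3.97 CPM (-0.22, edgeR adjusted p = 0.000598), a call that held in 29 of 29 settings. SEC24D, its partner in the coat, changed by -0.16 (edgeR adjusted p = 0.015), and SSR1, a subunit beside the translocation channel, by -0.13 (edgeR adjusted p = 0.0154). The latter pair of calls were lost without 0 µM replicate 1, 0 µM replicate 2 or 100 µM replicate 1, and that of SEC24D also without 100 µM replicate 2 or with no filter on low counts.

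Of 15 tested sensor and processing genes, 0 rose and 2 fell, beside 3.66% and 4.8% of all genes, with a median of -0.01. NFYB, a subunit of the NF-Y factor that binds the CCAAT part of the ERSE, fell from 42.8 ± 1.86 to 34.8 ± 1.34 CPM (-0.30, edgeR adjusted p = 0.000355) in 29 of 29 settings. The other NF-Y subunits, NFYA (0.03, edgeR adjusted p = 0.817) and NFYC (0.08, edgeR adjusted p = 0.298), were not called. EIF2AK3, which encodes PERK, fell from 22.4 ± 0.566 to 19.0 ± 0.818 CPM (-0.23, edgeR adjusted p = 0.0236), a call lost without any one of replicates 1 and 2 at 0 or 100 µM. Of 6 transcripts that active IRE1 is known to cleave, 0 rose and 1 fell, beside 3.66% and 4.8% of all genes. The 1 that fell was PDGFRB, a growth factor receptor and also a mesenchymal gene, from 31.9 ± 1.07 to 26.5 ± 1.82 CPM (-0.27, edgeR adjusted p = 0.00112). Of the 6 differences, 3 were above 0 and 3 below. At an unadjusted p under 0.05 edgeR gave 1 higher and 2 lower. SCARA3, at 226 ± 9.10 CPM in the controls and 210 ± 2.66 CPM at 100 µM, was below and not called (-0.10, edgeR adjusted p = 0.0941). BLOC1S1 (0.19) and HGSNAT (0.06) were above and not called. COL6A1 and SPARC were barely measured, at 1.82 and 0.931 CPM in the controls.

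Of 11 tested relatives of HSPA5 and HSP90B1 in the cytosol, the mitochondria and elsewhere, 0 rose and 2 fell. Of all genes, 3.66% rose and 4.8% fell. At an unadjusted p under 0.05 edgeR gave 0 relatives higher and 4 lower, beside 23.2% of all genes in either direction. HSPA8, the constitutive cytosolic Hsp70, fell from 3028 ± 137 to 2426 ± 25.4 CPM (-0.32, edgeR adjusted p = 2.17e-06), and the inducible HSPA1A fell from 376 ± 0.498 to 317 ± 17.8 CPM (-0.25, edgeR adjusted p = 0.00123). HSPA8 hosts small nucleolar RNA genes and HSPA1A has a near-identical copy, HSPA1B, so both counts are uncertain. HSP90AA1, a cytosolic Hsp90, was at 2920 ± 125 and 2699 ± 62.4 CPM (-0.11, edgeR adjusted p = 0.12).

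The PERK and ATF4 branch gave other counts. Of 18 genes, 16 rose and 0 fell at 100 µM, beside 3.66% and 4.8% of all genes, with a median log2 difference of 0.70. The list was chosen with earlier results of these data known, so the count is a description and not a test of the branch. CHAC1, a glutathione-degrading enzyme, went from 3.56 ± 0.269 to 26.3 ± 0.325 CPM (2.88, edgeR adjusted p = 4.08e-19), ATF3, a stress transcription factor, from 5.16 ± 0.621 to 17.6 ± 0.0986 CPM (1.77, edgeR adjusted p = 1.25e-13) and DDIT3, the factor CHOP, from 8.93 ± 0.754 to 18.1 ± 0.599 CPM (1.01, edgeR adjusted p = 3.26e-10). ATF4 itself rose by 0.34 (edgeR adjusted p = 2.41e-06), from 378 ± 17.9 to 476 ± 6.37 CPM. At 10 µM, 3 of the 18 rose, beside 0.241% of all genes. ATF4 is also induced by routes other than PERK, and which one acted in these cells was not tested.

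**Figure D5:**
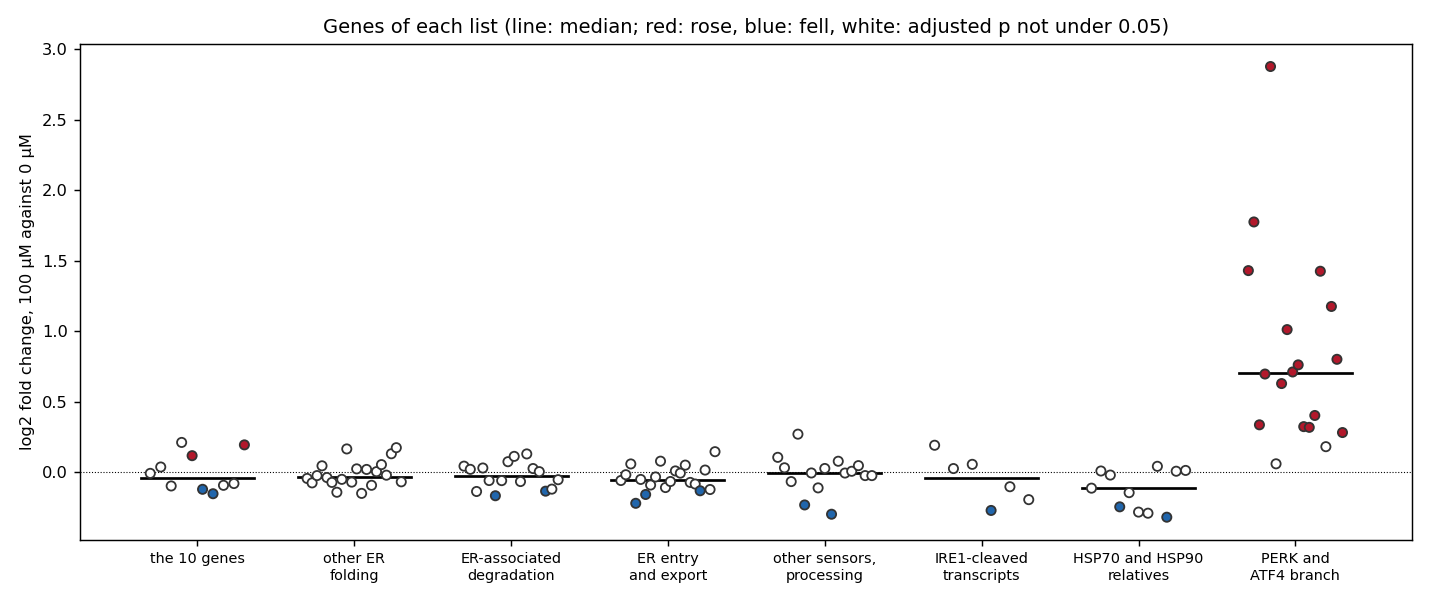
Log2 fold change at 100 µM against 0 µM for each tested gene (points) of the 10 members and 7 comparison lists, with the list median as a line; red points rose, blue points fell and white points did not pass the test. The PERK and ATF4 list has its median at 0.70, while the medians of the endoplasmic reticulum lists lie between -0.06 and -0.01. The lists were chosen with earlier results of these data known.

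The elements seen in the promoters were counted over the same lists. Of 66 other endoplasmic reticulum genes with a RefSeq window, 6 held an ERSE or ERSE-II, all of them folding genes: CALR, CANX, PDIA6, HYOU1, CRELD2 and ERO1B. With the 5 members that made 11 genes, of which 2 rose, 2 fell and 7 were not called at 100 µM. Of all genes, 3.66% rose and 4.8% fell. The called genes are the members already given above, and the 6 other genes were not called. Of 16 PERK and ATF4 branch genes with a window, 0 held an ERSE or ERSE-II and 3 (ATF3, CHAC1 and ASNS) held the C/EBP-ATF core.

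Over the 21 libraries and 11630 genes with a mean of at least 1 on the log2 CPM scale, the gene closest in pattern to HSPA5 was IGFBP3 (Pearson r = 0.957, Spearman rho = 0.895), followed by MGLL, SYT12, SLC43A3 and STAT3 (r = 0.925, 0.916, 0.915 and 0.899). The gene closest to XBP1 was PSPH (r = 0.956, rho = 0.805), followed by TRIB3, CHAC1, HOXB9 and HIST1H2AC (r = 0.943, 0.940, 0.933 and 0.932). TRIB3 and CHAC1 belong to the PERK and ATF4 list above. These values share the libraries and their scaling and rest in part on the 100 µM libraries: over the 18 libraries below 100 µM, r with HSPA5 was 0.743 for IGFBP3, 0.588 for MGLL, 0.530 for SYT12, 0.400 for SLC43A3 and 0.433 for STAT3. Over the same 18 libraries, r with XBP1 was 0.753 for PSPH, 0.724 for TRIB3, 0.666 for CHAC1, 0.657 for HOXB9 and 0.681 for HIST1H2AC. HSPA5 and XBP1 had r = -0.78 with each other over the 21 libraries, given as a description. The 100 µM libraries were the lowest of all for HSPA5 and the highest for XBP1. This r was not computed without them, so it does not show an inverse relation below 100 µM.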

How the data were processed

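Poly(dT)-selected RNA from 21 cultures was sequenced by the submitters. Per the labels, it was converted to cDNA with SmartScribe. The authors deposited a table of unnormalized whole-number counts, 1 column per library, and a table of FPKM. Dividing each count by gene length and by a factor fixed for its library gave the deposited FPKM, with a largest relative difference of 2.18e-08 above 100 counts. The submitters' processing notes name HISAT2, DESeq2 and GRCh38 but not what each was used for. Which tool counted reads, whether strand was used and which annotation release served are not given in the sources. Gene coordinates in the files equal GENCODE 29 for 10 of 10 genes.

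Groups came from the sample labels. After filterByExpr and TMM scaling, 1 quasi-likelihood model of the 7 groups was fitted with edgeR 4.0.16 in R 4.3.3 (14 residual degrees of freedom), adjusted by Benjamini-Hochberg over 16196 genes at 0.05. In a library, 3 counts are 0.0686 to 0.107 CPM, which covers counting error only. The alternatives were DESeq2 1.42.0 and its size factors, no filter, limma 3.58.1 on log2(FPKM + 1), a replicate block, a gene length offset, only the groups compared, and leaving out each library. A robust dispersion prior was added after seeing the data. Replicate numbers did not pair the libraries. The p-values measure the spread between libraries that the design text calls biological replicates.

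The members and lists were chosen with earlier results of these data known. The text names all 10 members, up to 5 called genes of each other list by smallest p, 10 further genes of known role, and the 5 genes most like HSPA5 and XBP1 by Pearson r. Further genes of a list are named where a count, an element or a factor that binds it is described. DERL3, CREB3L1 and ERN2 did not pass the filter, and HSPA14, listed on 2 rows of the same name, was left out. Promoter windows are from RefSeq (GRCh38.p14).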

Additional observations from a re-analysis of the deposited data

How the results depend on the processing

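Of the single-gene values under an alternative, 1907 kept their direction and side of the threshold, 116 lost the call, 14 gained it and 12 changed sign, all of these in differences near 0 that were not called. ATF6 at 100 against 0 µM, -0.0088 on the log2 scale, was 0.0058 with the gene length offset and -0.028 to 0.019 leaving out 1 library. ATF6 at 100 against 10 µM, -0.013, was 0.0052 with the offset and -0.043 to 0.010 leaving out 1 library. DNAJB9 at 100 against 10 µM, 0.033, ran from -0.011 to 0.064, and the EDEM1 trend, -0.00089, from -0.0056 to 0.0055, leaving out 1 library. Members called at 100 against 0 µM numbered 4, and 2 with only the groups compared (2 to 4 leaving out 1 library). Over the 7 groups there were 3, and 5 with DESeq2 (1 to 5 leaving out 1 library). For the trend there were 4, and 2 with no filter on low counts or with the replicate block (2 to 4 leaving out 1 library). At 100 against 10 µM there were 3, and 0 to 4 leaving out 1 library. Other endoplasmic reticulum genes called numbered 7, and 11 with DESeq2 (2 to 11 leaving out 1 library).

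The replicate numbers share no source in the labels. The correlation of the deviations of same-numbered libraries averaged -0.01, 0.00457 and -0.00119 over 21 pairs each, and 5 of 21 libraries matched their own number best. With the replicate block 3 members were called at 100 against 0 µM, 3 at 100 against 10 µM and 2 over the 7 groups.

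All-gene counts behind the shares also moved. At 100 against 0 µM, 1371 genes were called, 787 and 761 without 0 µM replicates 1 and 2, and 681 and 878 without 100 µM replicates 1 and 3. At 10 against 0 µM, 53 were called, 155 with DESeq2, 379 with no filter, 17 with limma, 7 without 0 µM replicate 2, 9 without 10 µM replicate 3 and 159 without 0.1 µM replicate 1. At 100 against 10 µM there were 740 (268 to 949 leaving out 1 library), for the trend 720 (457 to 827), and over the 7 groups 705 (344 to 1064), 1139 with DESeq2 and 1519 with no filter. Depth limits ERN1 most, at 97 to 185 counts per library.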
